A study of Homo sapiens with 2 samples.

Results

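The cytosolic ribosomal protein genes encode the protein part of the ribosome that translates nuclear-encoded mRNA. They were taken from a table of all genes by symbol: RPL or RPS followed by a number, with RPLP0, RPLP1, RPLP2, RPSA, FAU and the paralogs RPL36AL, RPL7L1 and RPS27L. This gave 85 rows of 37364, without use of any measured value. Of these rows, 82 were above 0 in both libraries, and the same 82 averaged 1 RPKM or more over both (reads per kilobase of transcript, scaled to library size), as did 13244 rows of the whole table, which are called measured genes here. RPS18 and the paralogs RPL10L and RPL3L were listed at 0 in both libraries.

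The study compared D407 cells, an established human retinal pigment epithelial line, treated with clusterin with control D407 cells, and asked which coding and noncoding RNAs differ. Clusterin is a secreted chaperone glycoprotein. Its dose and the time of exposure are not given in the sources used here. Each condition was 1 library of poly(A)-selected RNA from 1 cell line, so there is no replicate spread and no test between conditions. The levels rest on 33177100 reads for clusterin and 38236986 reads for the control, the totals by which the authors divided. Of the pigment epithelial markers, 4 of 8 (RPE65, RLBP1, TTR and TYR) were listed at 0 in both libraries. BEST1 stood at 1.73 RPKM in clusterin cells and 2.14 RPKM in control cells, PMEL and SERPINF1 were under 1 RPKM in both, and MITF stood at 9.88 RPKM in clusterin cells and 9.70 RPKM in control cells. The simple epithelial keratin gene KRT7 stood at 420 RPKM in clusterin cells and 407 RPKM in control cells, and KRT18 at 247 RPKM in clusterin cells and 254 RPKM in control cells. Since an exact 0 in such a table may be a failed estimate, these markers leave the label retinal pigment epithelium neither met nor refuted. In a bulk library, fewer cells expressing a gene and less RNA per cell cannot be told apart.

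Ribosomal proteins join the small subunit, which holds and decodes the mRNA, or the large subunit, which forms the peptide bond and carries the stalk that recruits translation factors. Their mRNAs are among the most abundant of growing cells, and their production is matched to that of ribosomal RNA. Most start with a C followed by a run of C and T, the terminal oligopyrimidine tract, through which mTOR signalling and the protein LARP1 set their translation.

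RefSeq promoter entries were matched for 67 of the 85 genes, and windows of 30 bases around the RefSeq start are shown for genes the results turn on. Each is read 5′ to 3′ on the gene's strand (build GRCh38.p14), with 10 bases before the start and 20 bases from it. Capitals mark the longest run of C and T that overlaps the first 10 bases of the gene, where it is at least 5 bases long. The first set holds the most abundant gene, the gene with the longest run, the stalk genes, RPS6 and FAU.
RPL41, chr12:56116623-56116652, plus strand: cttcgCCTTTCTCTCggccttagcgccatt
RPL7A, chr9:133348208-133348237, plus strand: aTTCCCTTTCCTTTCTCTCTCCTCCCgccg
RPLP0, chr12:120201092-120201121, minus strand: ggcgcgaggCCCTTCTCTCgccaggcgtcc
RPLP1, chr15:69452808-69452837, plus strand: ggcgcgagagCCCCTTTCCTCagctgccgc
RPLP2, chr11:809957-809986, plus strand: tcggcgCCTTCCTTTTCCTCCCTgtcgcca
RPS6, chr9:19380217-19380246, minus strand: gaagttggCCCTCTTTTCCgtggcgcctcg
FAU, chr11:65122115-65122144, minus strand: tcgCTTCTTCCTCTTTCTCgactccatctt

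The second set holds genes at both ends of the differences between the libraries, and pairs of a parent gene and its paralog. In RPS15 and RPS28 the run lies inside the gene rather than at its first base, and RPL13 and RPS27L have no run of 5 bases there.
RPS21, chr20:62387093-62387122, plus strand: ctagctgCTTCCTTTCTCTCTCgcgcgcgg
RPS28, chr19:8321486-8321515, plus strand: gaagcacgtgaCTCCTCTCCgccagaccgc
RPS15, chr19:1438386-1438415, plus strand: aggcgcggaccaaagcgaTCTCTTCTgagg
RPL13, chr16:89560647-89560676, plus strand: tgctatcatcccagagtgcattgcggggcc
RPL27A, chr11:8682782-8682811, plus strand: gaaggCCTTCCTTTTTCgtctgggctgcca
RPL36A, chrX:101391001-101391030, plus strand: ctcgcggTTTCTTTCTTTCCgcgccgatag
RPL36AL, chr14:49620607-49620636, minus strand: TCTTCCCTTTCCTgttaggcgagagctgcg
RPS27, chr1:153990752-153990781, plus strand: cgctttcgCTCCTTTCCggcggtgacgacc
RPS27L, chr15:63157458-63157487, minus strand: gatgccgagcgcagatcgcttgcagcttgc

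A run of at least 8 C or T bases overlapped the first 10 bases in 48 of the 67 genes (71.6%), against 8.98% of the 27305 promoters in the RefSeq table and 9.02% of those of 7797 other measured coding genes. The median run was 11 bases in the ribosomal protein genes and 3 bases in all promoters. The first base was C in 71.6% of the ribosomal protein genes and in 15% of all promoters. The windows of RPL41 and FAU show the common form, a C at the start inside an unbroken pyrimidine run, whereas RPS27L, unlike its parent RPS27, lacks it.

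**Figure D1:**
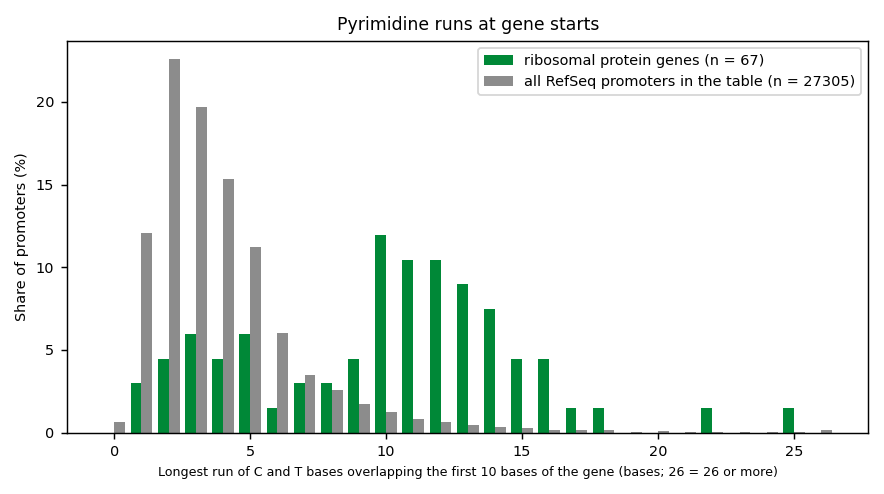
Share of promoters (%, vertical axis) by the length in bases of the longest C and T run overlapping the first 10 bases of the gene (horizontal axis), for 67 ribosomal protein genes and all 27305 RefSeq promoters. The ribosomal protein genes centre on a median of 11 bases and all promoters on 3 bases.

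Further sequence patterns were counted over the whole 300-base promoter entry, on both strands. The core ETS factor motif CCGGAAG was present in 34.3% of the ribosomal protein genes, against 10.7% of all promoters and 21.2% of those of other measured coding genes. The YY1 motif AAGATGGC was present in 10.4%, against 3.03% of all promoters and 6.1% of those of other measured coding genes. The TATA motif TATAAA was present in 8.96%, which was below the 12% of all promoters but above the 4.84% of other measured coding genes. Such a match is a description of the sequence and not a measured binding site.

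In both libraries the ribosomal protein genes stood far above the typical gene. Their median level was 395 RPKM in clusterin cells and 416 RPKM in control cells, against 5.61 RPKM in clusterin cells and 5.93 RPKM in control cells over all measured genes. There were 71 ribosomal protein genes at 100 RPKM or more in both libraries and 33 at 500 RPKM or more. They made up 35 of the 100 highest genes once structural and small RNA genes were left out.

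The highest mean level was that of RPL41, which encodes the smallest protein of the ribosome, with 1449 RPKM in clusterin cells and 1561 RPKM in control cells. RPL8, a large subunit protein near the catalytic centre, had 1491 RPKM in clusterin cells and 1509 RPKM in control cells. RPS2, a small subunit protein near the mRNA entry channel, had 1310 RPKM in clusterin cells and 1379 RPKM in control cells. These genes kept nearly the same level in the 2 libraries, although each was lower in clusterin cells. RPL13A had 1054 RPKM in clusterin cells and 1140 RPKM in control cells, and RPLP0, the base of the stalk, had 1002 RPKM in clusterin cells and 1046 RPKM in control cells. RPL28, singled out after its values were seen, was far lower, with 39.1 RPKM in clusterin cells and 40.7 RPKM in control cells.

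**Figure D2:**
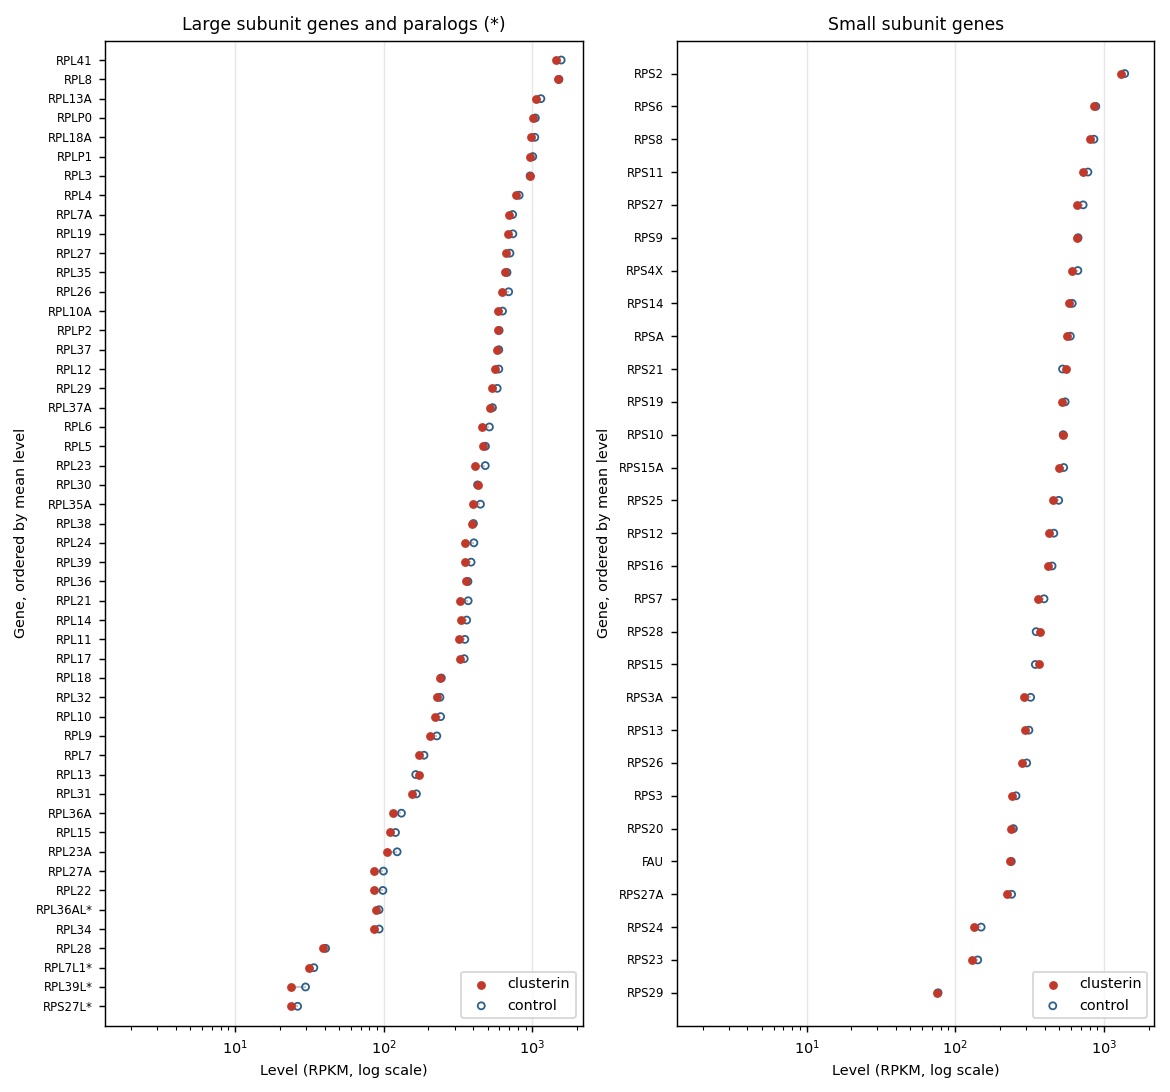
Level of 79 of the 82 measured rows (RPKM, log axis) in the clusterin library (filled) and the control library (open), ordered by mean, with paralogs starred. The symbols of each gene nearly coincide, and the levels run over more than 1 step of the log axis, with RPL41 and RPL8 at the top and RPL39L and RPS27L at the bottom.

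Part of this spread in level went with the transcript length behind the deposited value. That length was read from the values for 78 of the genes, as the length at which both levels gave whole reads and the deposited p-value. For the 64 genes with a length under 1500 bases, the median level was 453 RPKM in clusterin cells and 490 RPKM in control cells. For the 14 genes with a longer length, it was 131 RPKM in clusterin cells and 146 RPKM in control cells. The order was the other way round for reads: the shorter group had a median of 9301 clusterin and 11201 control reads, and the longer group 14176.5 clusterin and 18265 control reads. RPL27A, with a length of 4879 bases, had 13827 clusterin and 18574 control reads, above the medians of the shorter group. RPL28, with a length of 5183 bases, had 6725 clusterin and 8061 control reads, below the medians of both groups. Across the 78 genes, log level and log length had Pearson's r of -0.48 and Spearman's rho of -0.39, given as a description, since level is reads divided by that length.

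**Figure D3:**
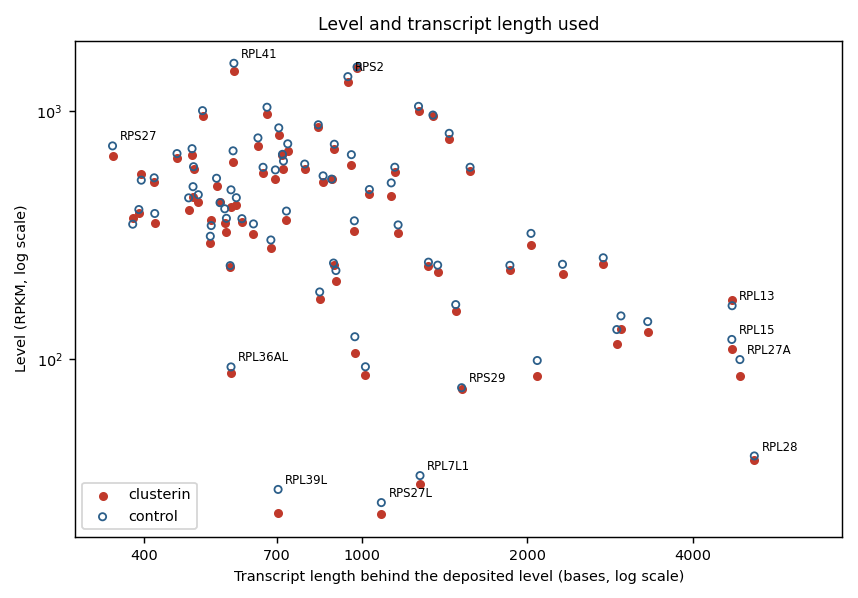
Level (RPKM, log axis) against the transcript length used for the deposited level (bases, log axis) for the ribosomal protein genes with recovered reads, with clusterin filled and control open. Genes with lengths over 4000 bases, RPL13, RPL15, RPL27A and RPL28, sit at 174 RPKM or lower in clusterin cells.

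The ribosomal protein genes were slightly lower in clusterin cells, most of them by similar amounts. The difference, log2 of (clusterin RPKM + 1)/(control RPKM + 1), had a median of -0.096 over the 82 rows, with quartiles of -0.13 and -0.055. Over all 13244 measured genes the median was -0.059, with quartiles of -0.13 and 0.017. In all, 75 of the 82 were below 0, against 70.2% of all measured genes, and 58 of the 82 were below the median of all genes, against the 50% that a median fixes. Thus much of the count below 0 went with the offset between the libraries as a whole.

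Among genes averaging 100 RPKM or more, 64 of 71 ribosomal protein genes were below 0, against 66.4% of all 444 such genes, and 49 of 71 were below the median of all measured genes, against 41%. The 373 other genes of that level had a median difference of -0.030. Among genes with at least 4000 recovered reads, a depth class chosen after the data were seen, 68 of 74 were below 0, against 80.1%, and 51 of 74 were below the median, against 52.6%. The 1925 other genes of that depth had a median of -0.062. With control values rescaled so that the median difference of all genes was 0, the median of the ribosomal protein genes was -0.026, and 54 of the 82 were below the median.

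In the authors' deposited table, 59 of the 82 had a q-value below 0.05 and were lower in clusterin cells, and 4 were higher. In the authors' deposited table, 10.4% of the 20642 genes above 0 had such a q-value and were lower, and 1.63% were higher. Those q-values carry the counting error of 1 library per condition and favour abundant genes. At the level of 100 RPKM or more, the authors' deposited table had 53 of 71 ribosomal protein genes lower and 4 higher at that q-value, against 40.5% and 13.5% of all 444 genes at that level.

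Counting error alone was small for these abundant genes. Exact 95% intervals of the clusterin to control ratio could be set against 0.953, the median ratio of all measured genes. Of the 74 ribosomal protein genes with at least 4000 recovered reads, 28 had an interval below that ratio, against 17.3% of all 1999 genes of that depth. There were 11 with an interval above it, against 22.1% of those genes. These intervals cover counting error only, and the spread between cultures was not measured.

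Together the recovered reads of 79 ribosomal protein genes came to 1033242 in clusterin cells and 1259933 in control cells. This was 3.11% of the clusterin reads (95% exact binomial interval 3.11 to 3.12) and 3.30% of the control reads (3.29 to 3.30). Of the summed RPKM of all genes, the ribosomal protein genes held 2.76% in clusterin cells and 2.97% in control cells. Both measures put the share of the whole group lower in the clusterin library. The clusterin to control ratio of the read shares was 0.945, close to 0.953, the median ratio of all measured genes. The ratio of the RPKM shares was 0.927. The narrow intervals cover counting error only.

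Both subunits were lower by nearly the same amount. The 31 measured small subunit genes had a median difference of -0.091, with 26 below 0 and 5 above. The 46 large subunit genes had a median difference of -0.099, with 44 below 0 and 2 above. Of all measured genes, 70.2% were below 0. Below the median of all genes were 21 small subunit and 32 large subunit genes, against the 50% that a median fixes. The small subunit gene RPS18, which encodes a protein of the subunit's head, was listed at 0 in both libraries although every cell uses it. An exact 0 of this kind may be a failed estimate, so RPS18 has no measured level here.

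At the upper end of the differences stood 3 small subunit genes and 2 large subunit genes. RPS21 had 559 RPKM in clusterin cells and 527 RPKM in control cells, from 7345 clusterin and 7981 control reads, a ratio of 1.06 (95% counting interval 1.03 to 1.09). RPS28 had 371 RPKM in clusterin cells and 350 RPKM in control cells, a ratio of 1.06 (1.02 to 1.10). RPS15, whose product lies close to the decoding site, had 365 RPKM in clusterin cells and 346 RPKM in control cells, a ratio of 1.06 (1.02 to 1.09). These 3 genes were higher in the clusterin library by more than counting error. RPL13 had 174 RPKM in clusterin cells and 164 RPKM in control cells, a ratio of 1.06 (1.04 to 1.07). RPL30 had 432 RPKM in clusterin cells and 428 RPKM in control cells, a ratio of 1.01 whose interval of 0.979 to 1.04 held 1. RPS10, also above 0, had a difference of 0.0063.

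Toward the lower end stood large subunit genes and a paralog. RPL23, a protein at the contact between the subunits that can bind MDM2, had 410 RPKM in clusterin cells and 482 RPKM in control cells. Its reads were 7846 in clusterin cells and 10632 in control cells, a ratio of 0.851 (0.826 to 0.876). RPL27A had 85.4 RPKM in clusterin cells and 99.6 RPKM in control cells, a ratio of 0.858 (0.839 to 0.877). Both intervals lay below the median ratio of all genes. The next, RPL23A and RPL22, named after their values were seen, had ratios of 0.860 (0.822 to 0.899) and 0.866 (0.837 to 0.896).

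**Figure D4:**
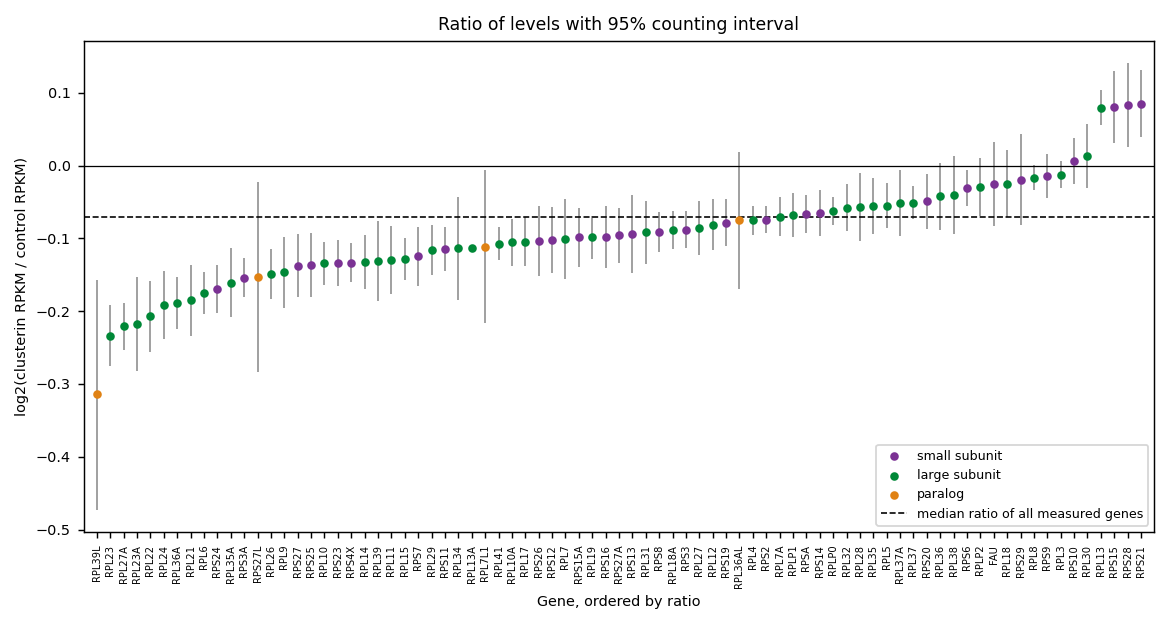
log2 of the clusterin to control ratio of RPKM for 79 ribosomal protein genes (points, coloured by subunit), with 95% counting intervals (bars; none for RPL13A), ordered by ratio; the solid line is 0 and the dashed line the median ratio of all measured genes, 0.953. RPL39L, at the left, has a wide interval from 559 clusterin reads and 801 control reads, and RPL13, RPS15, RPS28 and RPS21 stand apart at the right with ratios of 1.06.

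The proteins with roles of their own mostly lay near the median of all genes. The stalk genes had differences of -0.062 for RPLP0, -0.068 for RPLP1 and -0.029 for RPLP2; RPLP1 had 959 RPKM in clusterin cells and 1006 RPKM in control cells, and RPLP2 had 585 RPKM in clusterin cells and 597 RPKM in control cells. RPL5 and RPL11, which with 5S ribosomal RNA form the particle that inhibits MDM2 when assembly is disturbed, were both lower in clusterin cells as deposited. RPL5 had 465 RPKM in clusterin cells and 483 RPKM in control cells, a ratio of 0.963 (0.943 to 0.983). RPL11 had 321 RPKM in clusterin cells and 351 RPKM in control cells, a ratio of 0.914 (0.885 to 0.944). The intervals of RPL5 and RPL11 overlapped only at their edges. Such overlap does not tell whether the ratios differ, which was not tested.

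RPS6, the substrate of S6 kinase downstream of mTOR, had 864 RPKM in clusterin cells and 882 RPKM in control cells. RPSA, a small subunit protein also described as a laminin receptor, had 568 RPKM in clusterin cells and 595 RPKM in control cells. RPS27A, made as a fusion with ubiquitin, had 224 RPKM in clusterin cells and 239 RPKM in control cells. FAU, made as a fusion with a ubiquitin-like protein, had 234 RPKM in clusterin cells and 238 RPKM in control cells. All 4 were lower in clusterin cells as deposited. With control values rescaled to a median difference of 0, the differences of RPLP0, RPLP1, RPLP2, RPL5, RPS6, RPSA, FAU and RPL8 were above 0, so their direction rests on the scaling.

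Of the 6 paralogs found by the rule, 4 were measured, all lower in clusterin cells, with a median difference of -0.13. Of all measured genes, 70.2% were below 0, so these few genes do not set the paralogs apart. The counting intervals of RPS27L, RPL7L1 and RPL36AL held the median ratio of all measured genes. RPL39L, a paralog of RPL39 best known from testis, had 24.0 RPKM in clusterin cells and 29.8 RPKM in control cells, a ratio of 0.804 (0.721 to 0.897). Its parent RPL39 had 353 RPKM in clusterin cells and 387 RPKM in control cells, a ratio of 0.913 (0.879 to 0.948). The intervals of RPL39L and RPL39 overlapped in a narrow range, which does not tell whether the ratios differ. That was not tested. RPS27L, a target of p53, had 23.7 RPKM in clusterin cells and 26.4 RPKM in control cells, and its parent RPS27 had 659 RPKM in clusterin cells and 725 RPKM in control cells. RPL36AL had 88.3 RPKM in clusterin cells and 93.0 RPKM in control cells, and its parent RPL36A had 115 RPKM in clusterin cells and 132 RPKM in control cells. RPL7L1 had 31.4 RPKM in clusterin cells and 33.9 RPKM in control cells, and its parent RPL7 had 174 RPKM in clusterin cells and 187 RPKM in control cells. Each of these paralogs was thus below its parent gene per length in both libraries. RPL3L, a paralog of striated muscle, and RPL10L, a paralog of testis, were listed at 0.

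A fixed list of 17 genes mutated in Diamond-Blackfan anaemia, an inherited failure of red cell production, was read, which need not be complete. All 17 were measured. Their median difference was -0.10, with 15 on the lower side of 0, against 70.2% of all measured genes, and 11 below the median of all genes, against 50%. RPS28, with a ratio of 1.06, and RPS10 were the 2 above 0.

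Among the ribosomal protein genes, the difference went with base composition more than among other genes. Across the 65 measured genes with a promoter entry, difference and GC content of the 300-base promoter had Pearson's r of 0.41 and Spearman's rho of 0.38. Across 7978 other measured genes r was 0.076, and across the 172 others with at least 100 RPKM it was 0.094. The difference also went with level. Across 80 measured ribosomal protein genes, difference and log mean level had r of 0.31 and rho of 0.29. For level, r was 0.051 across 12649 other measured genes and 0.17 across 292 others with at least 100 RPKM. Of the 4 genes with ratios of 1.06, promoter GC content was 70.7% for RPS21, 70.0% for RPS28, 69.0% for RPL13 and 64.7% for RPS15. RPL35, with the highest promoter GC content of these genes at 72.3%, had a difference of -0.055, and RPS16, at 68.7%, had -0.098. These points share the same 2 libraries, so the correlation is a description of them. The 12 ribosomal protein genes on the GC-rich chromosome 19 had a median difference of -0.049, against -0.10 for the 70 on other chromosomes. Their median promoter GC content was 64.7% on chromosome 19 and 58.5% elsewhere. Other genes had median differences of -0.029 on chromosome 19 and -0.060 elsewhere. Median promoter GC content of those other genes was nearly the same in both places, 65.3% on chromosome 19 and 65.7% elsewhere.

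Genes with and without a pyrimidine run at the start had similar median differences. The 47 measured genes with a run of at least 8 bases had a median difference of -0.094, and the 15 with a run under 6 bases had -0.10. The 22 genes with the ETS motif had a median of -0.10, and the 43 without it -0.094. Host genes of small nucleolar RNAs, which guide the modification of ribosomal RNA and are cut from introns, were similar as well: 26 genes with such rows inside them had a median of -0.084, and 54 others -0.099.

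Reads of some genes cannot be assigned with certainty, because processed pseudogenes and read-through transcripts share their sequence. RPL13AP5 was listed at 1525 RPKM in clusterin cells and 1647 RPKM in control cells, above RPL13A itself. RPL21P28 had 6108 clusterin and 8000 control reads, and RPL21 had 6108 clusterin and 8004 control reads. The RPL21 and RPL21P28 counts are thus nearly the same and may be the same reads. Of 30 pseudogene rows, 22 were above 0 and 3 averaged 5 RPKM or more. The read-through row RPS10-NUDT3 had 181 RPKM in clusterin cells and 180 RPKM in control cells, beside 535 RPKM in clusterin cells and 532 RPKM in control cells for RPS10. Without RPL13A, RPL17, RPL21, RPL36A and RPS10, which have such a row of at least 10% of their level, the median difference was -0.094.

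Other terminal oligopyrimidine mRNAs and ribosome biogenesis genes had median differences between -0.096, of the ribosomal protein genes, and -0.059, of all measured genes. Of 23 other mRNAs with a terminal oligopyrimidine tract, mostly translation factors, 19 had a difference below 0, against 70.2% of all measured genes, and 17 lay below the median of all genes, against 50%, with a median difference of -0.086. In the authors' deposited table, 16 of these 23 had a q-value below 0.05 and were lower, and none was higher, against 10.4% lower and 1.63% higher of all genes above 0. Those q-values favour abundant genes. Of the 444 genes averaging 100 RPKM or more, a level that not all 23 reach, 40.5% were lower and 13.5% higher at that q-value. Their lowest were HNRNPA1, an RNA-binding protein, at 336 RPKM in clusterin cells and 397 RPKM in control cells, and COX4I1, a respiratory chain subunit, at 179 RPKM in clusterin cells and 206 RPKM in control cells. Their highest were EEF1D and GLTSCR2, with differences of 0.046 and 0.054.

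Of 44 ribosome biogenesis genes, 36 had a difference below 0, against 70.2% of all measured genes, and 28 lay below the median, against 50%; their median difference was -0.079. In the authors' deposited table, 10 of these 44 had a q-value below 0.05 and were lower, beside the same 10.4% of all genes, and none was higher, beside 1.63%. RRN3, an initiation factor of RNA polymerase I, had 9.23 RPKM in clusterin cells and 10.8 RPKM in control cells. GNL2, a nucleolar GTPase, had 16.8 RPKM in clusterin cells and 19.4 RPKM in control cells. At the upper end were BOP1, with 31.5 RPKM in clusterin cells and 30.2 RPKM in control cells, and RRS1, with 20.7 RPKM in clusterin cells and 18.7 RPKM in control cells. Of the paralogs outside the rule, RPL22L1 had a difference of -0.14 and RPL26L1 of 0.073. The part of the offset between the libraries in these list medians was not tested.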

How the data were processed

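RNA of 2 libraries, 1 clusterin-treated and 1 control, was taken from D407 cells, grouped by their labels. Per the labels' protocols, mRNA was enriched on oligo(dT) beads and copied with random hexamers. Bowtie, TopHat and Cuffdiff with build hg19 are named in the submitters' processing notes, without versions. The deposited start positions of 80 ribosomal protein rows, however, lie within 2000 bp of the RefSeq GRCh38 positions. The build behind the deposited levels is thus uncertain. The authors deposited 1 level per gene and library, and for each gene the p-value, the q-value and the log2 fold change. The file headers name no unit for the levels, which were read as RPKM from the deposited values: for 491 of 536 small RNA genes both gave whole reads within 0.02, at 33177100 clusterin and 38236986 control reads. Of these, 483 had a deposited p-value within 2% of the Audic-Claverie p, which covers read sampling only. Reads were recovered for 19929 of 20642 genes above 0 (96.5%), including 80 of the 82 measured ribosomal protein rows. Whole numbers cannot tell reads from read pairs.

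Differences are on the scale log2((clusterin RPKM + 1)/(control RPKM + 1)), which understates changes of low genes, over rows averaging 1 RPKM or more. For ratios, the share of a gene's reads found in clusterin cells was given an exact Clopper-Pearson interval (95%). Such intervals cover counting error only, since reads carry no molecular identifiers. The q threshold of 0.05 was chosen here. Scripts used Python 3.11.15, NumPy 2.4.6, SciPy 1.17.1 and pandas 2.3.3, and were tested on simulated data.

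The text names the 5 highest and 5 lowest genes by level and by difference, the paralogs, the genes with a role of their own and those listed at 0, and in other lists the 2 highest and 2 lowest; a few genes this takes are not reported here. The members and lists were chosen with earlier results of these data known. Sequences are from RefSeq (GRCh38.p14); the RefSeq start need not be the start used in these cells. Pseudocounts, filters, scalings and member sets were varied, and leaving out genes with copies was chosen after seeing the data.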

Additional observations from a re-analysis of the deposited data

How the results depend on the processing

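The median difference of the ribosomal protein genes stayed between -0.097 and -0.094 under other pseudocounts (0.1 and 5 RPKM), other filters, without the paralogs, from recovered reads, and without genes with copies. The median of all genes moved more. It was -0.036 at a pseudocount of 5 RPKM, -0.069 at 0.1 RPKM and -0.076 from recovered reads, beside -0.059 as reported. The distance between these medians thus depends on the setting. The median of the ribosomal protein genes was -0.026 with control values rescaled so that the median of all genes was 0. With quantile normalization it was -0.062, where the median of all genes was -0.0031. The count below the background median was 49 to 67 over these settings, beside 58 of 82 as reported. The row sets and backgrounds differ, so these counts are not directly comparable. The 49 were of 80 rows with recovered reads. The 67 were of 82, at a pseudocount of 5 RPKM and also against the median of genes averaging 100 RPKM or more. There were 78 rows without the paralogs and 77 without genes with copies. The share of clusterin RPKM, 2.76%, was 3.11% as recovered reads over the library total and 3.54% without small and ribosomal RNA genes. Quantile normalization put RPL8 at 0.039 and RPLP2 at 0.034, above 0, and RPS2 and RPSA at 0. Rescaling turned 8 named genes above 0, given above. No paired analysis was possible because each condition has 1 library, and leaving out a library leaves no comparison. With 1 library each, a difference between cultures cannot be told apart from an effect of clusterin.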
